A study of Rattus norvegicus with 24 samples.

Results

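The comparison described here set 3 RNA libraries labelled as the α1ACT line at 6 h against 3 labelled as the empty vector line at 6 h, in PC12 cells. The 6 libraries were taken by their labels from the 24 of the series, and each was joined to its count file by its sample record and not by the name in the file. The study followed a stable line carrying the empty plasmid pcDNA3 and a stable line expressing α1ACT from the same plasmid, with 3 libraries for each line at each of the times 6 h, 24 h, 3 d and 10 d. In the sample titles the α1ACT line is named Q11 and the vector line P. Both lines were grown in F-12K medium with horse serum and fetal bovine serum, at passages 18 to 20, with no further treatment named. The labels do not say from which event the hours and days were counted.

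A doubt over identity bears on every direction given here. For 18 of the 24 libraries the name inside the file gave a different group from the label, while the replicate number was the same in all 24. The 3 libraries labelled vector 6 h also carried that group in their file names. The 3 labelled α1ACT 6 h had files named vector 24 h. By the labels, each contrast below compares α1ACT with vector at 6 h. By the file names, the same contrast compares 24 h with 6 h within the vector line, and no library with α1ACT enters it. "α1ACT libraries" and "vector libraries" are used below for the libraries as labelled, and "higher" and "lower" mean in the α1ACT libraries relative to the vector libraries. On the file-name reading they mean at 24 h relative to 6 h in the vector line.

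PC12 is a rat line from a pheochromocytoma, a tumour of the neural crest-derived chromaffin cells of the adrenal medulla. Its cells make and store catecholamines, and they extend neurites when treated with nerve growth factor. α1ACT is the C-terminal fragment encoded by CACNA1A, the gene of the pore subunit of P/Q-type calcium channels. It is made from the same messenger as the channel and enters the nucleus, where it acts on transcription. Each line was 1 stable line, so a difference between lines could not be told apart from other differences between those lines. No row of the count tables stands for the human transgene, so no value here shows which libraries carried it.

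The 6 libraries held 10118539 to 11893124 counts on genes, with 10118539 to 11723280 in the vector and 11603721 to 11893124 in the α1ACT group. Levels are given in CPM, the usual scale of a gene's counts relative to all counts on genes, here after scaling of the libraries. CPM is not corrected for gene length, so levels are compared between libraries and not between genes. A floor of 3 counts stood at 0.26 to 0.30 CPM in the vector libraries and at 0.246 to 0.253 CPM in the α1ACT libraries. Reads outside annotated genes were 47.8% to 49.3% of assigned, ambiguous and outside reads in the vector libraries. In the α1ACT libraries they were 48.96% to 50.01%. For every 100 of all those reads, alignments that were not unique numbered 86.3 to 89.7 in the vector libraries. In α1ACT replicates 1, 2 and 3 they numbered 78.7, 75.7 and 89.9. The part of either in the results was not tested. Replicate 2 lay farthest from the other members of its group in both groups. All 17 tested markers of chromaffin and neural crest cells were detected, summing to 29150 to 30810 CPM in the vector libraries and 29550 to 34390 CPM in the α1ACT libraries. Tyrosine hydroxylase (Th), the rate-limiting enzyme of catecholamine synthesis, stood at 5719, 5375 and 5469 CPM in the vector libraries and at 5215, 5402 and 4760 CPM in the α1ACT libraries. The 2 groups of values overlapped for Th, and the call was not made (edgeR adjusted p = 0.112). The groups also overlapped for chromogranin A (Chga), at 2730, 3765 and 2832 against 2898, 3718 and 2850 CPM. The protocol calls the libraries biological replicates, but no label ties them to separate cultures. The p-values therefore rest only on how far the 24 libraries of the fit spread within their 8 groups, which may be technical.

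Many genes differed by small amounts and fewer by large ones. In edgeR's quasi-likelihood test with Benjamini-Hochberg adjustment over 9994 tested genes, 4162 passed the threshold of 0.05, which is 41.6% of them. Of these, 2045 were higher (20.5%) and 2117 lower (21.2%), and 5832 were not called. The median size of a called change was 0.33 on the log2 scale, and its 90th percentile was 0.85. At least 2-fold changes numbered 289 (2.89%), with 161 higher and 128 lower. The 3 libraries of one group did not overlap the 3 of the other for 5173 genes (51.8%), of which 3962 were also called. Higher genes were 49.1% of those called, and 60.3% when raw library totals replaced the scaling factors. Leaving out replicate 2 of every group gave 3985 genes, leaving out replicate 1 gave 2580, and leaving out replicate 3 gave 2637. The shares of 20.5% and 21.2% are the background for each gene list below, as is the median of 0.003 over all tested genes. The lists were written with earlier results of these data known. Their shares are therefore a description and not independent support.

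Genes that serum and growth factors switch on rapidly were lower as a group, with the transcription factor SRF itself among them. SRF binds the CArG box of muscle, actin and immediate early promoters, together with ternary complex factors downstream of ERK or with MRTF, which follows the pool of unpolymerised actin. Of 30 listed immediate early genes 25 were tested, 16 were lower (64%), 2 were higher and 7 were not called, with a median of -0.60. Fosb was not in the tables, and 4 members lay below the filter on low counts.

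Srf stood at 166, 181 and 186 CPM in the vector libraries and at 62.2, 52.3 and 63.4 CPM in the α1ACT libraries. Every α1ACT library lay under every vector library. The log2 fold change was -1.58 ± 0.09, or 2.995-fold lower (edgeR's quasi-likelihood test, adjusted p = 1.47e-12). Fosl1, a partner of Jun in the AP-1 transcription factor, stood at 14.99, 14.7 and 17.3 CPM against 1.81, 0.833 and 0.759 CPM. The groups lay far apart, with a 13.6-fold difference (-3.77 ± 0.28, adjusted p = 1.50e-10 by edgeR). Klf6, a zinc finger factor, stood at 152, 157 and 154 against 62.2, 68.3 and 67.8 CPM, 2.34-fold lower. Arc, which acts at synapses and is induced by activity, was 2.51-fold lower (-1.33 ± 0.13), and Klf4, another zinc finger factor, 3.46-fold lower (-1.79 ± 0.21). Jun stood at 122, 118 and 129 CPM in the vector libraries and 67.7, 56.98 and 72.6 CPM in the α1ACT libraries, 1.87-fold lower with no overlap. The 2 members that rose were Myc, a growth-promoting factor, at 5.94, 5.46 and 5.89 against 11.8, 13.4 and 10.96 CPM (1.07 ± 0.17), and Fos at 6.83, 8.14 and 5.89 against 9.36, 13.8 and 9.87 CPM (0.65 ± 0.23, adjusted p = 0.0243 by edgeR). In both, the lowest α1ACT library stood above the highest vector library. Fos and Fosl1, which both pair with Jun, thus differed in opposite directions, and 1 member passed as higher without replicate 1, replicate 3, α1ACT replicate 2, vector replicate 1 or vector replicate 3. Egr1, a zinc finger factor induced by serum, stood at 1.33, 1.99 and 1.199 against 0.328, 0.416 and 0.675 CPM, 3.17-fold lower.

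The windows before the start sites of Srf, Actg1 and Klf6, 3 genes lower by at least 2-fold, are shown because each holds a CArG box, in capitals. Sequences are from the RefSeq promoter table of assembly GRCr8, 5′ to 3′ along the gene's strand, and not from these libraries. The Srf window is chr9:21923956-21924075 on the + strand, and its boxes begin 81 and 61 bases before the start. The Actg1 window is chr10:106120952-106121071 on the - strand, with its box 90 bases before the start, and the Klf6 window is chr17:69458599-69458718 on the - strand, with its box 201 bases before the start.
Srf: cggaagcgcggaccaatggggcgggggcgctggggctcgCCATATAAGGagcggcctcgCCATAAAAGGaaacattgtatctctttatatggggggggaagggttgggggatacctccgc
Actg1: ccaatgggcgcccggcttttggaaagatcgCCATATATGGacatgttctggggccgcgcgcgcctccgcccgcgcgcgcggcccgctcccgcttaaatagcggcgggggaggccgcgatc
Klf6: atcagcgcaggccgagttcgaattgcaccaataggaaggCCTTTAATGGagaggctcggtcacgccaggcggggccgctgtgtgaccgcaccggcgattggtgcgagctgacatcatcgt
The 250 bases before each start were searched on both strands, matches of different motifs being allowed to overlap, and 8102 of the 9994 tested genes had a window. A CArG box was found in 1.5% of all 33469 windows and in 94 of the 8102 tested genes (1.16%). Among genes lower by at least 2-fold it was found in 6 of 103 (5.83%), namely Actg1, Egr1, Klf6, Myo1e, Sema3c and Srf. Among genes higher by at least 2-fold it was found in 0 of 113. Among lower immediate early genes with a window it was found in 3 of 12 (Egr1, Klf6 and Srf). In the lower members of the contractile list described next it was found in 0 of 14. Over all tested contractile members with a window it was found in 2 of 21 (Lima1 and Fhl1). The motif TGACGTCA, the cAMP response element, was found in 1.59% of all windows and 3.18% of tested genes. It was found in 6 of 103 genes lower by at least 2-fold (5.83%) and in 2 of 113 higher by at least 2-fold (1.77%). Among lower immediate early genes with a window it was found in 4 of 12 (Jund, Maff, Ier2 and Btg2). A match describes letters in a window and is not a measured binding site.

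Genes of the contractile apparatus and of focal adhesions, which couple actin filaments to integrins, were also lower for the most part, with 16 of 23 tested members lower (69.6%), 2 higher and 5 not called. The list had 34 members, of which 31 were in the tables and 8 lay below the filter. Its median was -0.54. Vinculin (Vcl), which links actin to integrins and cadherins, stood at 509.6, 608 and 539.7 CPM in the vector libraries and 168, 179.7 and 171 CPM in the α1ACT libraries. The highest α1ACT library lay far under the lowest vector library, at a log2 fold change of -1.68 ± 0.09 (3.19-fold lower, edgeR adjusted p = 1.27e-12). Tgfb1i1, the focal adhesion protein Hic-5, stood at 33.6, 36.9 and 36.2 against 7.06, 7.16 and 7.25 CPM, 4.96-fold lower. Pdlim7, a scaffold of actin bundles, was 2.58-fold lower (66.4 against 25.7 CPM), and Csrp1, a LIM protein of smooth muscle, 2.12-fold lower (1447 against 682 CPM). Filamin A (Flna), which crosslinks actin filaments, stood at 2006, 1906 and 2140 CPM against 1135, 978 and 1178 CPM. This was a 1.84-fold difference with no overlap. Myl9, a regulatory light chain of smooth muscle myosin, stood at 6.65, 6.58 and 7.29 against 0.985, 1.17 and 2.11 CPM, 4.797-fold lower, and Tagln2 was 1.59-fold lower. The 2 higher members were Cnn3, a calponin (25.8 against 41.1 CPM, 0.68 ± 0.07), and the integrin subunit Itgb5 (22.8 against 33.9 CPM, 0.57 ± 0.10). Cytoplasmic γ-actin (Actg1) is not in that list and was named for its abundance. Levels were 589, 704 and 608 CPM against 191, 194 and 194 CPM, 3.28-fold lower (-1.72 ± 0.09). Actin genes have near-identical processed copies in the genome, so reads may have been shared or set aside.

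**Figure D1:**
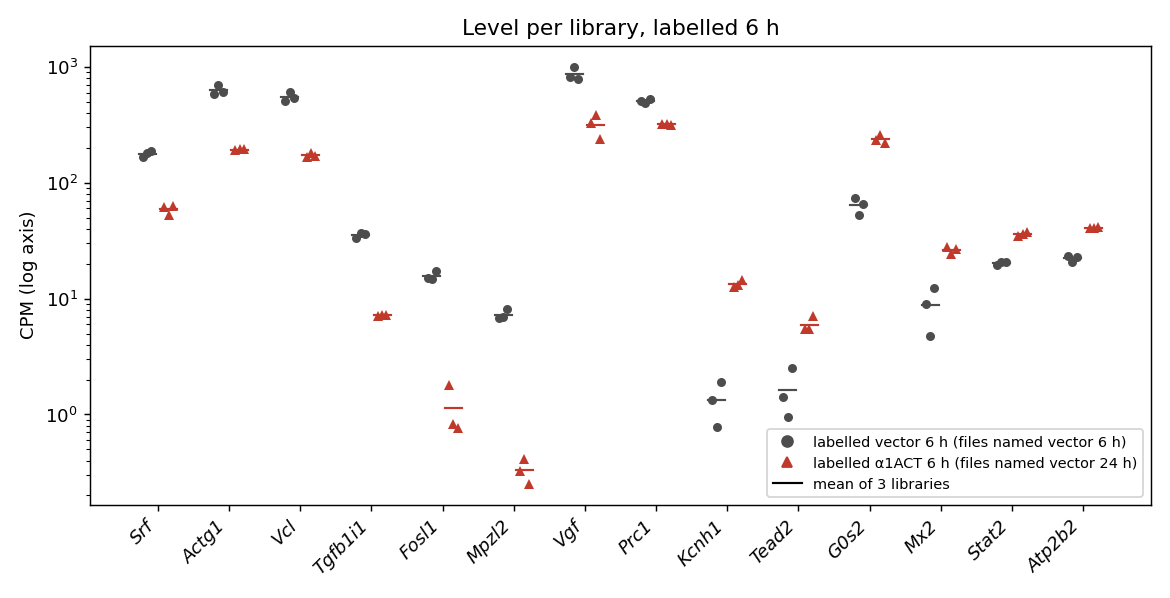
Level of 14 genes in each of the 6 libraries, in CPM on a log axis, with grey circles for libraries labelled vector 6 h, red triangles for libraries labelled α1ACT 6 h and a short line at the mean of 3. The groups do not overlap for any of the 14 genes, and replicates lie close together except for low genes such as Fosl1, Kcnh1 and Mx2.

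The keratins Krt8 and Krt18, which form filaments in simple epithelia, were lower beside these lists. The 11 epithelial markers in the tables summed to 1696 to 2028 CPM in the vector libraries and 1133 to 1308 CPM in the α1ACT libraries, with the defining markers Krt19 and Esrp1 at 0 in all 6. Krt8 stood at 1059, 1273 and 1117 against 623, 747 and 651 CPM (-0.77 ± 0.10), and made up most of that sum. Of 9 tested epithelial markers 4 were lower (Krt8, Krt18, Cldn4 and Epcam), 2 were higher (Elf3 and Ocln) and 3 were not called. Higher markers numbered 1 without replicate 1, α1ACT replicate 2, vector replicate 1 or vector replicate 3, and 0 without replicate 3. The part of these genes in the fall of the adhesion genes was not tested. In bulk RNA, fewer cells of a type and less RNA per cell cannot be told apart.

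The list of ERK feedback genes holds genes induced by ERK and genes that dampen it. Of its 20 tested members 6 were lower (30%) and 1 was higher. In 8 of the 9 fits that left libraries out, all but that without α1ACT replicate 1, no member was higher. The transcription factor Etv5 stood at 51.1, 55.9 and 53.1 against 25.04, 32.8 and 23.3 CPM, 1.97-fold lower, and Dusp6, a phosphatase that inactivates ERK, at 7.45, 8.84 and 9.69 against 2.22, 3.25 and 4.05 CPM, 2.72-fold lower. Both had separate groups. Lower members numbered 3 without replicate 1 of every group and also 3 without replicate 3, and the calls of Dusp1, Dusp5 and Spred1 ended in at least 5 of the 15 alternatives each. Cell-surface adhesion genes were lower in 7 of 17 tested members and higher in none. Mpzl2, an immunoglobulin-type adhesion protein, had the largest fall by the naming rule, at 6.83, 6.93 and 8.09 CPM in the vector libraries and 0.328, 0.416 and 0.253 CPM in the α1ACT libraries. That is a 21.2-fold difference (-4.40 ± 0.35, edgeR adjusted p = 3.65e-10). Icam1, a ligand of leukocyte integrins, stood at 5.68, 3.38 and 3.197 against 0.41, 0.666 and 1.35 CPM, 5.04-fold lower. The synaptic adhesion protein Cadm1 was 1.23-fold lower (-0.30 ± 0.04). Of 11 tested Hippo pathway genes, 3 were lower and 2 higher. Tead2, a transcription factor that binds YAP, stood at 1.42, 0.953 and 2.498 against 5.42, 5.42 and 7.08 CPM, 3.73-fold higher. Yap1 itself had a difference of 0.33 ± 0.17 that did not pass (edgeR adjusted p = 0.115). The calls of Tead3, Nf2 and Lats1 ended in 4 or 5 of the 15 alternatives each, and without replicate 1 or without replicate 3 the lower Hippo members numbered 1 and the higher ones 1.

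**Figure D2:**
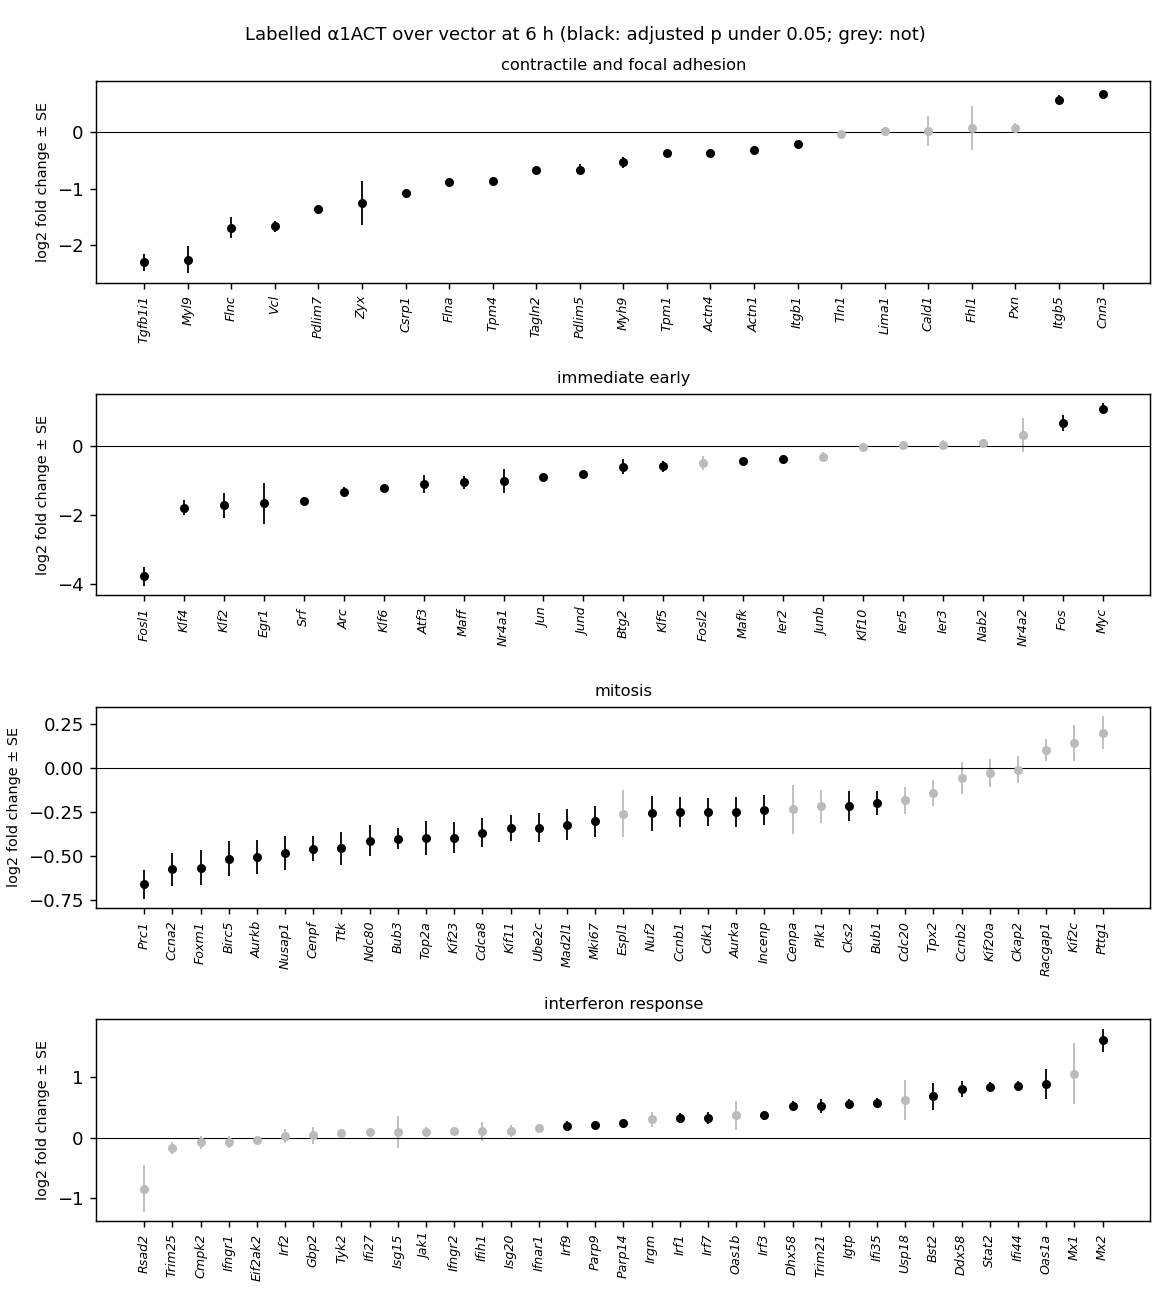
Log2 fold change ± SE of tested members of 4 gene lists at the labelled 6 h, with black points for adjusted p under 0.05 and grey points for the rest (1 interferon gene is not drawn). Contractile and immediate early genes reach below -2, mitosis genes stay between -0.66 and 0.20, and called interferon genes are all above 0.

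A protease receptor, a secreted protease and several lipid enzymes were also among the largest falls. Plaur, the urokinase receptor, stood at 3.55, 1.99 and 2.498 against 0.41, 0.25 and 0.422 CPM, 7.24-fold lower, and the matrix metalloproteinase Mmp10 at 4.79, 3.29 and 4.196 against 1.23, 0.5 and 1.18 CPM, 4.17-fold lower. Thrombospondin 1 (Thbs1), secreted into the matrix, had summed counts of 32 in the vector group and 2 in the α1ACT group. The ratio scaled for depth was 17.6, with an exact 95% counting interval of 4.48 to 151 that covers counting error only. Of 18 tested matrix genes 5 were lower and 3 higher, and 3 were lower without replicate 3, α1ACT replicate 3 or vector replicate 2. Decorin (Dcn), a matrix proteoglycan, stood at 1.69, 2.77 and 1.499 against 6.73, 6.92 and 7.34 CPM, 3.47-fold higher. Of 12 fibroblast markers 9 were at or under the floor. Col1a2, Col3a1, Lum, Pdgfra, Pdgfrb and Fap had no counts in the 6 libraries. The glycolytic gene Tpi1 also lay below the filter on low counts. Loss of reads in mapping or counting was not tested, so a count of 0 in any marker list need not mean absence. The transcription factor Twist1 stood at 48.7, 48.9 and 53.5 against 54.7, 56.8 and 51.95 CPM and did not pass (edgeR adjusted p = 0.236). The 12 markers summed to 681 to 711 CPM in the vector and 758 to 810 CPM in the α1ACT libraries, mostly from Thy1, which is also a neuronal surface protein. Among other large falls, Sgms2, a sphingomyelin synthase, stood at 103, 93.8 and 103 against 22.6, 25.6 and 24.8 CPM (4.12-fold lower). Sphk1, which makes sphingosine 1-phosphate, was 4.26-fold lower, and Pik3r5, a regulatory subunit of phosphoinositide 3-kinase γ, 3.53-fold lower. Scn7a, a sodium-level-sensing channel, stood at 2.57, 3.12 and 3.097 against 0.0821, 0.583 and 0.506 CPM. RGD1559493 and LOC100360880, named here only as the tables name them, were 7.64-fold and 5.305-fold lower. Ugt1a2, a glucuronosyltransferase whose locus shares exons among transcripts, had 131 counts in the vector and 7 in the α1ACT libraries, a ratio of 20.5 (9.70 to 52.1, exact 95% counting interval).

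Among genes with a mean of at least 200 CPM over the 6 libraries, the largest changes, those of Actg1, Vcl and Vgf included, were falls. Azin1, which protects ornithine decarboxylase from antizyme, stood at 773, 894 and 764 CPM in the vector libraries and 226, 277 and 230.2 CPM in the α1ACT libraries, 3.31-fold lower. Slc25a24, a mitochondrial carrier of ATP-magnesium and phosphate, stood at 529, 547 and 544 against 170.3, 162 and 171 CPM, 3.22-fold lower. In both genes the groups were separate by more than their own range.

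The largest rise by the naming rule was that of Kcnh1, a voltage-gated potassium channel of the ether-à-go-go family. Its levels were 1.33, 0.78 and 1.898 CPM in the vector libraries, against 12.5, 13.2 and 14.3 CPM. The groups did not overlap, at 3.33 ± 0.27 on the log2 scale (10.1-fold, edgeR adjusted p = 4.03e-10). Smtnl2, a smoothelin-like protein, stood at 7.36, 7.71 and 5.79 against 31.9, 38.8 and 30.3 CPM, 4.81-fold higher. G0s2, an inhibitor of the triglyceride lipase of fat droplets, stood at 74.3, 52.7 and 64.9 against 234, 258 and 222 CPM, 3.72-fold higher. Of these, G0s2 had the highest counts and the tightest estimate (1.90 ± 0.10). Beside Tead2, Dcn and Sema6d, which are described elsewhere, the other rises by the naming rule were of low counts. They were Otop3, a proton channel (3.99-fold), Plekhb1 (3.73-fold), the ubiquitin ligase Trim6 (3.33-fold) and Kremen2 (3.32-fold), with the serotonin receptor Htr6 (3.22-fold). The remaining ones were Lypd3 (3.17-fold), dysferlin (Dysf, 3.09-fold) and the protocadherin Pcdh8 (3.08-fold). All of these low-count genes had a mean of at most 5.62 CPM in the α1ACT libraries.

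Genes of neurite growth and neuronal differentiation were lower in 18 of 36 tested members (50%), higher in 4 and not called in 14, with a median of -0.26. The list also holds Plaur and Mmp10, described above among the largest falls, and its share depends on which genes were listed. The secreted neuropeptide precursor Vgf, a classical target of nerve growth factor in PC12 cells, stood at 813, 1002 and 789.5 CPM in the vector libraries and 331, 382 and 239 CPM in the α1ACT libraries. This was 2.74-fold lower (-1.45 ± 0.18, edgeR adjusted p = 5.15e-07), and its lowest vector library was far above its highest α1ACT library. Sprr1a, induced in injured neurons, stood at 105, 89.5 and 96.6 against 37.4, 26.8 and 40.7 CPM, 2.77-fold lower. Dclk1, a microtubule-binding kinase, stood at 103, 88.03 and 95.2 against 38.7, 37.9 and 32.1 CPM, 2.63-fold lower. The neurofilament subunits did not move together. The medium subunit Nefm stood at 136, 120.1 and 116 against 81.4, 55.4 and 76.2 CPM (-0.80 ± 0.10) and the light subunit Nefl at 308, 327 and 325 against 232, 226 and 234 CPM (-0.47 ± 0.08), both lower. The heavy subunit Nefh was higher, at 109.7, 104 and 114 against 142, 149.5 and 139 CPM (0.39 ± 0.07, edgeR adjusted p = 6.05e-05).

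Axon guidance genes went mainly the other way, with 12 of 29 tested members higher (41.4%), 6 lower and a median of 0.29. Receptors of netrins and semaphorins were among those that rose. The netrin receptor Unc5b stood at 146, 125 and 143 against 282, 244 and 274 CPM, 1.93-fold higher, and Unc5a was 1.74-fold higher. Plxnd1, a semaphorin receptor, stood at 59.8, 49.99 and 55.4 against 109, 100.5 and 103 CPM, 1.89-fold higher, and the semaphorin Sema6d at 12.1, 7.71 and 12.4 against 34.7, 26.99 and 37.95 CPM, 3.12-fold higher. Among those that fell were the secreted ligand Slit2, at 39.8, 35.2 and 35.7 against 19.5, 13.3 and 17.2 CPM (2.21-fold lower), and Efna1, a ligand of Eph receptors (1.75-fold lower). No library of one group overlapped the other for these 6 genes. Higher members numbered 6 without replicate 1 of every group.

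**Figure D3:**
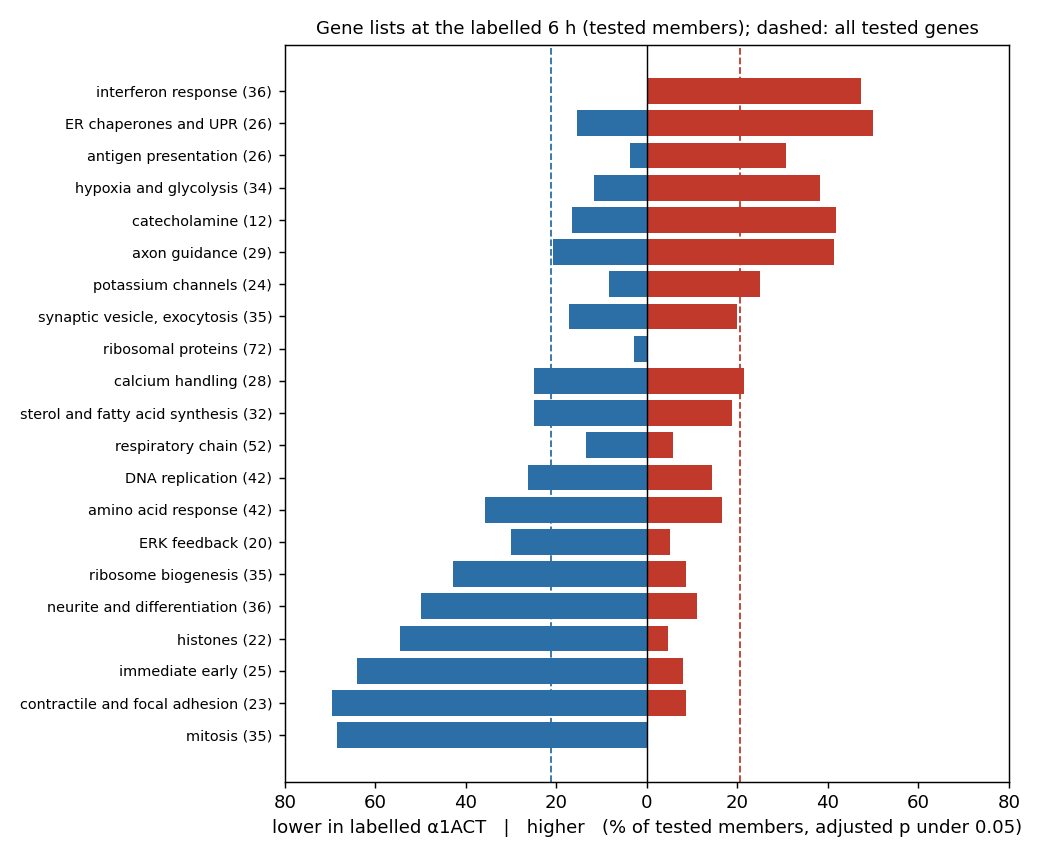
Share of the tested members of 21 gene lists that were called higher (red, to the right) or lower (blue, to the left) at the labelled 6 h, in percent, with the number of tested members in brackets and dashed lines at the shares over all tested genes. The mitosis, contractile and immediate early lists reach over 60% lower, and the ribosomal protein list has 2 called members of 72.

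Genes of the chromaffin phenotype changed in both directions and by less. Of 12 tested genes of catecholamine synthesis, storage and transport 5 were higher (41.7%), 2 lower and 5 not called. Cyb561, which supplies electrons to dopamine β-hydroxylase inside the vesicle, stood at 1342, 1314 and 1432 CPM in the vector libraries and 2110, 2197 and 2210 CPM in the α1ACT libraries, 1.59-fold higher. The vesicular monoamine transporter Slc18a1 stood at 666, 856 and 655 against 970.4, 1315 and 914 CPM (0.56 ± 0.11), with replicate 2 highest in both groups. The noradrenaline transporter Slc6a2 was 1.36-fold higher, the decarboxylase Ddc 1.22-fold and the monoamine oxidase Maoa 1.33-fold. Gch1, which makes the cofactor of tyrosine hydroxylase, was 1.32-fold lower, and Spr of the same pathway 1.28-fold. Among 11 tested sympathoadrenal transcription factors, 2 were higher and 3 lower. Gata2 stood at 444, 382 and 440 against 683, 674 and 667 CPM, 1.6-fold higher, and Hand1 was 1.49-fold higher. The calls of Isl1 and Phox2a ended in 6 and 8 of the 15 alternatives, and 1 factor passed as lower without replicate 2, α1ACT replicate 2 or vector replicate 2.

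Exocytosis genes were near the background, with 7 of 35 tested members higher (20%) and 6 lower (17.1%), and 2 lower without replicate 3. Within the list, Rab3a, a vesicle GTPase of regulated secretion, stood at 16.8, 14.7 and 17.3 against 38.9, 43.6 and 39.4 CPM, 2.503-fold higher. Rph3a, which binds Rab3a, stood at 33.1, 24.3 and 30.2 against 63.7, 61.1 and 59.3 CPM, 2.11-fold higher. Syt4, a synaptotagmin, stood at 2451, 2180 and 2392 against 1611, 1704 and 1601 CPM, 1.43-fold lower. Of 12 tested genes of granins, peptide hormones and their processing, the carboxypeptidase Cpe was higher (0.80 ± 0.23), and Vgf and adrenomedullin (Adm, -0.47 ± 0.08) were lower. The call of Cpe ended without replicate 1 or without replicate 3, where no member was higher. Higher members numbered 2 without replicate 2 or α1ACT replicate 1 and 3 without α1ACT replicate 3 or vector replicate 2. Among 18 tested growth factor receptors and adaptors 5 were higher and 3 lower. The low-affinity neurotrophin receptor Ngfr stood at 598, 439.9 and 649 against 848, 828 and 898 CPM (1.53-fold higher, edgeR adjusted p = 7.43e-06). The 5 higher receptors and adaptors were 2 without replicate 1, replicate 3 or α1ACT replicate 2 and 3 without vector replicate 1, and the 3 lower ones were 1 without replicate 1.

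Calcium channel genes had few calls, with 1 of 10 tested members higher and none lower. Cacna1a, the rat's own gene for the channel, stood at 15.3, 14.7 and 14.2 CPM in the vector libraries and 18.1, 16.3 and 14.9 CPM in the α1ACT libraries. These values overlapped between the groups, with a log2 fold change of 0.16 ± 0.12 (edgeR adjusted p = 0.302). A share of transgene reads in Cacna1a was not tested. The higher member was the β subunit Cacnb3 (0.24 ± 0.07), and no member passed without replicate 3 or without vector replicate 2. Calcium handling genes were split, with 6 higher and 7 lower of 28 tested, and 4 lower without replicate 1. The plasma membrane calcium pumps differed in direction. Atp2b1 stood at 203, 193 and 204 against 119.6, 126 and 122 CPM, 1.63-fold lower, while Atp2b2 stood at 23.2, 20.8 and 22.7 against 40.5, 40.4 and 41.8 CPM, 1.84-fold higher. Atp2b2 is also 1 of 4 genes tied to α1ACT in earlier work that were followed here, and the others did not pass. Grn, the progranulin gene, had a difference of 0.11 ± 0.05, the antiproliferative gene Btg1 0.23 ± 0.11, and Taf1, a subunit of the general factor TFIID, -0.03 ± 0.06. With raw library totals, Grn and Btg1 passed as higher and Taf1 changed sign to 0.012 without passing. Btg1 also passed with no filter on low counts, with only the libraries compared and without replicate 2. In the labelled 3 d comparison of the lines, 1 of these 4 genes was higher and none lower. In the labelled 24 h comparison none was higher and 2 were lower, and the difference from 6 h passed for 3. Of 24 tested potassium channels 6 were higher and 2 lower. Beside Kcnh1, the inward rectifier Kcnj12 stood at 44.97, 44.5 and 50.1 against 102, 101 and 99.4 CPM, 2.17-fold higher, and Kcnn1, a calcium-activated channel, was 1.8-fold lower.

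Genes of mitosis were lower in 24 of 35 tested members (68.6%) and higher in none, but by small steps, with a median of -0.26 and a range of -0.66 to 0.20. Prc1, which bundles microtubules of the central spindle, stood at 506, 488 and 525 CPM in the vector libraries and 322, 320.5 and 317 CPM in the α1ACT libraries. It was 1.58-fold lower with no overlap (edgeR adjusted p = 7.41e-07). Cyclin A2 (Ccna2) stood at 219, 225 and 224 against 139, 159 and 149 CPM, 1.49-fold lower. Foxm1, the transcription factor of late cell cycle genes, stood at 59.7, 56.5 and 59.2 against 40.5, 42.2 and 35.7 CPM, 1.48-fold lower. Aurkb, the kinase of the chromosomal passenger complex, was 1.42-fold lower, the kinetochore protein Cenpf 1.38-fold and the checkpoint protein Bub3 1.32-fold. In a test against a fold of 1.2, 8 members passed as lower, and without replicate 1, 16 did. With raw library totals, 18 were lower and 1 higher, and 1 was higher without vector replicate 3.

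The motif TTTGAA, the core of the element through which late cell cycle promoters are repressed in resting cells, is shown in capitals in the windows of Prc1 and Birc5. Birc5 encodes survivin of the passenger complex and was 1.43-fold lower. The Prc1 window is chr1:143659401-143659480 and the Birc5 window chr10:103572066-103572145, both on the + strand of GRCr8 from RefSeq, with the motif 18 and 8 bases before the start.
Prc1: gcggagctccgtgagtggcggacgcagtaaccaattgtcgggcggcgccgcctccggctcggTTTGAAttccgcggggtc
Birc5: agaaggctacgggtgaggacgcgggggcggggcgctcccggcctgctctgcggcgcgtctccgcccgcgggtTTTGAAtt
This short motif was found in 16.2% of all 33469 windows and 10% of the tested genes with a window. It was found in 14 of 28 mitosis genes with a window, and in 8 of the 19 that were lower.

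Cells also differed in genes of DNA synthesis and of the entry into the cycle, without a common direction. Of 42 tested replication genes 11 were lower (26.2%), 6 higher and 25 not called. The primase subunit Prim1 stood at 394, 357 and 404 against 253, 260.3 and 261 CPM, 1.49-fold lower, and the sliding clamp Pcna at 799, 769 and 826 against 574, 672 and 592 CPM, 1.302-fold lower. The licensing genes Orc1 (1.64-fold) and Cdc6 (1.49-fold) and the polymerase subunit Pold1 (1.45-fold) were higher. The count of lower replication genes was 4 without replicate 1, 6 without replicate 3 and 21 without replicate 2, and it also moved by over 1.5 times without α1ACT replicate 1 (7), vector replicate 1 (6) or vector replicate 3 (6). Of 18 tested regulators of the G1 phase 6 were higher and 4 lower, the latter being 2 without replicate 1, without replicate 3 or without vector replicate 1. Cyclin D1 (Ccnd1), which drives the passage through G1, stood at 632, 609 and 650.3 CPM in the vector libraries and 999.7, 967 and 988 CPM in the α1ACT libraries. It was 1.56-fold higher with no overlap, and the pocket protein Rbl2 was 1.57-fold higher. Histone genes were lower in 12 of 22 tested members (54.5%) and higher in 1, the linker histone H1f0 (0.31 ± 0.06). H3f3b, a replacement histone, stood at 1143, 1137 and 1122 against 754, 859.7 and 723 CPM, 1.46-fold lower, and Hist3h2a was 1.52-fold lower. Lower histone genes numbered 6 without replicate 1 and 4 without replicate 3. Histone genes have near-identical copies, so single members are uncertain.

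Interferon response genes were higher in 17 of 36 tested members (47.2%) and lower in none, with a median of 0.27. Type I interferon acts through a complex that holds STAT2 and IRF9 and binds the interferon-stimulated response element in antiviral genes. Mx2, an antiviral GTPase, stood at 9.05, 4.77 and 12.4 CPM in the vector libraries and 27.7, 24.5 and 26.6 CPM in the α1ACT libraries. The vector values spread widely but stayed under every α1ACT value, at 3.05-fold (1.61 ± 0.19, edgeR adjusted p = 4.29e-07). Stat2 stood at 19.3, 20.6 and 20.6 against 34.4, 36.2 and 37.9 CPM, 1.79-fold higher, with no overlap. Ifi44 stood at 46.5, 37.9 and 47.6 against 77.1, 81.3 and 80.97 CPM, 1.82-fold higher, the GTPase Igtp was 1.48-fold higher and Ifi35 1.49-fold. Some classical members did not follow. Isg15 had a difference of 0.10 ± 0.27, Ifih1 one of 0.11 ± 0.16 and Rsad2 one of -0.84 ± 0.38, none of which passed (edgeR adjusted p = 0.806, 0.6 and 0.0811). Without α1ACT replicate 3, 1 member passed as lower. Ifit1, Ifit2 and Ifit3 were not among the tested genes. In a test against a fold of 1.2, 9 members passed as higher. Of 12 immune cell markers 11 were at or under the floor, and Cd68 stood at 2.31, 1.82 and 1.699 against 2.22, 1.5 and 2.02 CPM. The counts were 0 in all 6 libraries for Ptprc, Aif1, Itgam, C1qa, C1qb and Tyrobp, and the list summed to 1.90 to 2.57 CPM in the vector and 2.17 to 2.54 CPM in the α1ACT libraries.

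The windows of Ifi44, Parp14 and Igtp, 3 higher members, are shown with the core of the response element, GAAA, any 2 bases and GAAA again, in capitals. In Ifi44 the motif lies on the other strand and appears in its reverse complement. The windows are chr2:243303841-243303930 on the - strand, chr11:78408044-78408133 on the + strand and chr10:42874917-42875006 on the + strand of GRCr8, from RefSeq. The motif begins 26, 76 and 103 bases before the start.
Ifi44: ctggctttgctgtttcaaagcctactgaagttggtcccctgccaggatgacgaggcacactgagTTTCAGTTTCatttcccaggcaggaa
Parp14: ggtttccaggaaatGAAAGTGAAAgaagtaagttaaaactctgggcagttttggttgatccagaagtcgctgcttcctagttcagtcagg
Igtp: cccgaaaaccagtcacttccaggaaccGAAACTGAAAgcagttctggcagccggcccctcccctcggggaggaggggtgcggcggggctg
This core was found in 3.41% of all windows and in 2.46% of tested genes with a window. It was found in 15 of 27 interferon genes with a window and in 7 of the 13 that were higher, and also in 8 that were not called, such as Rsad2 and Ifih1. Among genes higher by at least 2-fold it was found in 4 of 113 (3.54%). Among genes lower by at least 2-fold it was found in 2 of 103 (1.94%), namely Cxcl10 and RGD1563982. Cxcl10 is not on the interferon list, so the absence of lower members holds for the listed genes only.

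Antigen presentation genes were higher in 8 of 26 tested members (30.8%) and lower in 1. The proteasome activator subunit Psme2 stood at 16.3, 17.2 and 18.7 against 24.3, 23.8 and 26.8 CPM, 1.44-fold higher, and the class I genes RT1-M3-1 (1.33-fold) and RT1-N3 (1.41-fold) were higher. B2m, the light chain of class I molecules, was the lower member (-0.18 ± 0.07, edgeR adjusted p = 0.0359). No member passed as lower in 7 of the 9 fits that left libraries out, namely without replicate 1 or 3, without α1ACT replicate 1 or 3 and without any vector replicate. RT1 genes are near-identical copies of one another, so their single values are uncertain.

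Many chaperones of the endoplasmic reticulum were higher, while 3 sensors of the stress that induces them were lower. Of 26 tested genes of this response 13 were higher (50%) and 4 lower, and 8 were higher without replicate 1. The chaperone calreticulin (Calr), also counted among antigen presentation genes, stood at 846, 1024 and 853 CPM in the vector libraries and 1258, 1421 and 1302 CPM in the α1ACT libraries, 1.46-fold higher. Hsp90b1 stood at 362, 410.2 and 362 against 599.7, 635 and 525 CPM, 1.55-fold higher, and the disulfide isomerase Pdia4 at 107, 126 and 103 against 161, 185 and 166 CPM, 1.52-fold higher. The 4 lower members were the sensors Ern1 (-0.50 ± 0.11), Atf6 (-0.31 ± 0.06) and Eif2ak3 (-0.33 ± 0.07) and the channel component Derl1 (-0.20 ± 0.05). Genes of the amino acid response, which follows ATF4, were lower in 15 of 42 tested members (35.7%) and higher in 7. Atf4 stood at 386, 477 and 384 against 272, 353 and 252 CPM, 1.42-fold lower, and its target Ddit3 at 46.8, 45.8 and 48.2 against 29.97, 31.2 and 30.1 CPM, 1.54-fold lower. The isoleucyl-tRNA synthetase Iars was 1.397-fold lower and the neutral amino acid transporter Slc1a4 1.43-fold. Higher members of that list numbered 0 without replicate 1 and 4 without replicate 3, α1ACT replicate 1, α1ACT replicate 2 or vector replicate 3. Heat shock genes were near the background at 5 higher and 4 lower of 22, with 2 to 6 higher and 2 to 5 lower across the fits that left libraries out. Hsph1 was 1.45-fold higher and Hspa4l 1.398-fold lower, with separate groups.

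Metabolic lists were mixed. Hypoxia and glycolysis genes were higher in 13 of 34 tested members (38.2%) and lower in 4. Vegfa, the angiogenic growth factor, stood at 527, 477 and 483 against 887, 849.7 and 714 CPM, 1.65-fold higher, and Epas1, the oxygen-regulated factor HIF-2α, at 471, 423 and 435 against 693, 669 and 702 CPM, 1.55-fold higher. The main glucose transporter Slc2a1 went the other way, at 82.3, 83.7 and 80.5 against 33.9, 40.99 and 38.1 CPM, 2.18-fold lower, as did the lactate transporter Slc16a1 (1.44-fold lower). The glucose transporter Slc2a3 (1.63-fold) and the lactate transporter Slc16a3 (1.45-fold) were higher. Of 32 tested sterol and fatty acid genes 6 were higher and 8 lower, and 5 were lower without replicate 1, replicate 3 or vector replicate 1. The early enzyme Hmgcs1 (137, 189.8 and 135 against 288, 344 and 322 CPM, 2.06-fold) and the regulator Insig1 (1.895-fold) were higher. The enzymes Cyp51 (559, 611 and 578 against 365, 424 and 383 CPM, 1.49-fold) and Fdps (1.4-fold) were lower. Of 19 tested genes of lipid storage and use 5 were higher and 2 lower. Beside G0s2, the hormone-sensitive lipase Lipe was 2.11-fold higher and lipoprotein lipase (Lpl) 1.27-fold higher.

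Ribosomal proteins had few calls, with 2 of 72 tested members lower (2.78%) and none higher. Their log2 fold changes ranged from -0.51 to 0.54, so few calls do not show that the list was even. Rplp1 (-0.20 ± 0.07) and Rpl32 (-0.40 ± 0.15) were those 2, and their calls ended in 8 and 10 of the 15 alternatives. Ribosome biogenesis genes were lower in 15 of 35 tested members (42.9%) and higher in 3, with small changes such as -0.45 ± 0.08 for the pseudouridine synthase Dkc1, and 8 or 9 were lower without replicate 1 or 3. Respiratory chain genes were called in 10 of 52 (3 higher, 7 lower) and mitochondrial ribosome genes in 13 of 46 (5 higher, 8 lower), and with replicates left out their higher counts ranged from 0 to 6 and from 2 to 6. In the respiratory chain 1 to 6 members were lower across those fits, and in the mitochondrial ribosome 3 to 8. Genes listed as p53 targets were even, with 7 higher and 7 lower of 25. Higher ones numbered 3 without replicate 1, and lower ones 4 without replicate 1, replicate 3, α1ACT replicate 2 or vector replicate 3. Control of single members of that list by p53 was not tested. Cyclin G2 (Ccng2), a cell cycle inhibitor, stood at 60.1, 56.1 and 57.2 CPM in the vector libraries and 127, 124 and 119 CPM in the α1ACT libraries. It had the smallest p of the 228 genes named by the rule (edgeR adjusted p = 4.60e-14) and was 2.13-fold higher. Gadd45a, a stress-induced inhibitor of the cycle, stood at 15.8, 12.1 and 17.6 against 7.31, 6.33 and 6.41 CPM, 2.26-fold lower. Genes of the NRF2 response were higher in 6 and lower in 7 of 25. Srxn1, which repairs peroxiredoxins, was 2.07-fold lower and the glutathione transferase Gstm1 1.396-fold higher. The lower NRF2 genes were 4 without replicate 1, replicate 2, α1ACT replicate 2 or vector replicate 1. Genes of TGFβ and BMP signalling were higher in 5 and lower in 8 of 26, and 4 were lower without replicate 1 or 3. Gdf15, a stress-induced cytokine, was 2.04-fold higher and Id3, a BMP target, 1.31-fold lower. Markers of Schwann cells and glia, endothelium and adrenal cortex summed to 64.5 to 72.7, 2.80 to 4.93 and 1.80 to 3.37 CPM over the 6 libraries, and Pmp22 (-0.51 ± 0.12) was the called one among them.

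The labelled 3 d comparison holds 6 other libraries and bears on both readings. By its labels it sets α1ACT against vector at 3 d. By file names it sets 24 h against 6 h in the α1ACT line, which is the same pair of times as the file names give for the labelled 6 h. Group means of the labelled vector libraries lay 0.194 apart between 6 h and 3 d (root mean square log2 difference). Those of the α1ACT groups lay 0.185 apart, and the groups compared here 0.388. By file names, 0.194 and 0.185 are distances between the lines at 6 h and at 24 h. The labelled vector groups lay 0.644 apart between 6 h and 24 h and 0.222 between 24 h and 10 d. For the labelled α1ACT groups these distances were 0.400 and 0.215. By the labels, 6 h thus lay nearer to 3 d than to 24 h in both lines. Of the 4162 genes called at 6 h, 4077 (98.0%) had the same sign at 3 d, and 3064 were called at both, which is 73.6% of the 6 h calls and 77.9% of the 3934 calls at 3 d (39.4% of tested genes, 19.9% higher and 19.4% lower). Of these 3064, 4 had opposite signs. Across the 9994 genes, which are not independent replicates, the log2 fold changes had Pearson's r of 0.820 and Spearman's rho of 0.836, given as a description. Srf had -1.61 ± 0.09 at 3 d, Fosl1 -4.45 ± 0.31, Vcl -1.45 ± 0.09, Kcnh1 2.77 ± 0.19 and Stat2 0.54 ± 0.09. In the test of the difference itself, 0 genes passed at an adjusted p of 0.05 by edgeR and 0 by DESeq2. At an unadjusted p under 0.05, 487 genes passed by edgeR (4.87% of tested genes) and 397 by DESeq2. A count of 0 does not show that the 2 comparisons were alike.

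Of the lists, mitosis had the most members at an unadjusted p under 0.05 for the difference between these 2 comparisons. At 6 h 24 of 35 were lower and 0 higher, while at 3 d 5 were lower and 11 higher. The members at that unadjusted p were 25 of 35, beside 4.87% of all tested genes. Cyclin B1 (Ccnb1) stood at 149, 178 and 158 against 137, 135 and 135 CPM at 6 h (-0.25 ± 0.09), and its change at 3 d was 0.27 ± 0.09. In a fit of the 12 libraries of these comparisons alone, 8 genes passed the test of the difference. They were Ccnb1, Kif23, Kifc1, Kif20a, Ccnf, Iqgap3, Plk1 and Tpx2, most of them genes of spindle assembly, mitotic kinases or cyclins. Without replicate 2 of every group, 14 genes passed, and 2 of them were on the mitosis list (Aurkb and Cenpf). The others were Mastl, Kifc1, Ccnf, Aloxe3, Pask, Mdc1, Myh10 and the histone genes Hist2h4, Hist1h2bh and Hist1h1d, all more negative at 6 h, and Btg3 and Ncald, more positive at 6 h.

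**Figure D4:**
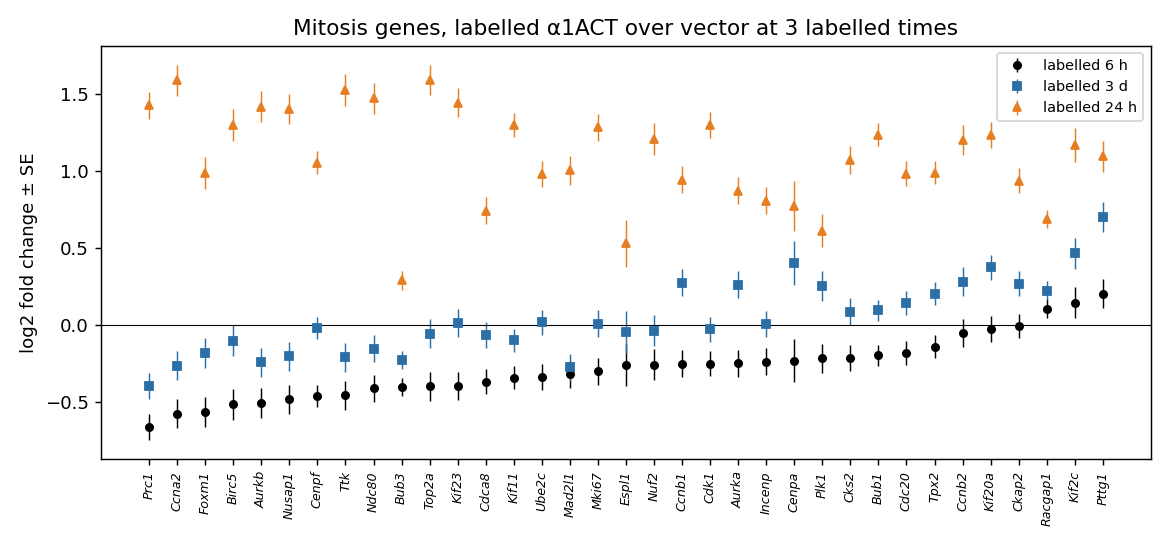
Log2 fold change ± SE of α1ACT over vector for the 35 tested mitosis genes at the labelled 6 h (black circles), 3 d (blue squares) and 24 h (orange triangles), in the order of the 6 h value. The 3 d values lie mostly above the 6 h values and near 0, and every 24 h value is above 0.

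The labelled 24 h comparison differed widely. By its labels it sets α1ACT against vector at 24 h, and by file names 10 d against 3 d in the vector line. It called 5542 genes (55.5%, with 26.6% higher and 28.8% lower), and the test of the difference from 6 h called 5136 (51.4%), of which 2707 were more positive at 6 h and 2429 more negative. Across tested genes the log2 fold changes had Pearson's r of 0.016. Mitosis genes were higher in 35 of 35 at 24 h, with a median of 1.09, and the difference from 6 h passed for all 35. Prc1, lower at 6 h, had 1.43 ± 0.09 at 24 h. All 42 replication genes and all 22 histone genes tested were also higher at 24 h, and 39 and 20 of them differed from 6 h. At 24 h immediate early genes were lower in 12 of 25 and higher in 2, and 11 differed between the times. Of 23 contractile genes 7 were higher and 6 lower, and 18 differed between the times. Srf, 2.995-fold lower at 6 h, had 0.03 ± 0.09 at 24 h (edgeR adjusted p = 0.782), and Vcl had 0.42 ± 0.10. Of 36 interferon genes 10 were higher and 12 lower, and 23 differed between the times.

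**Figure D5:**
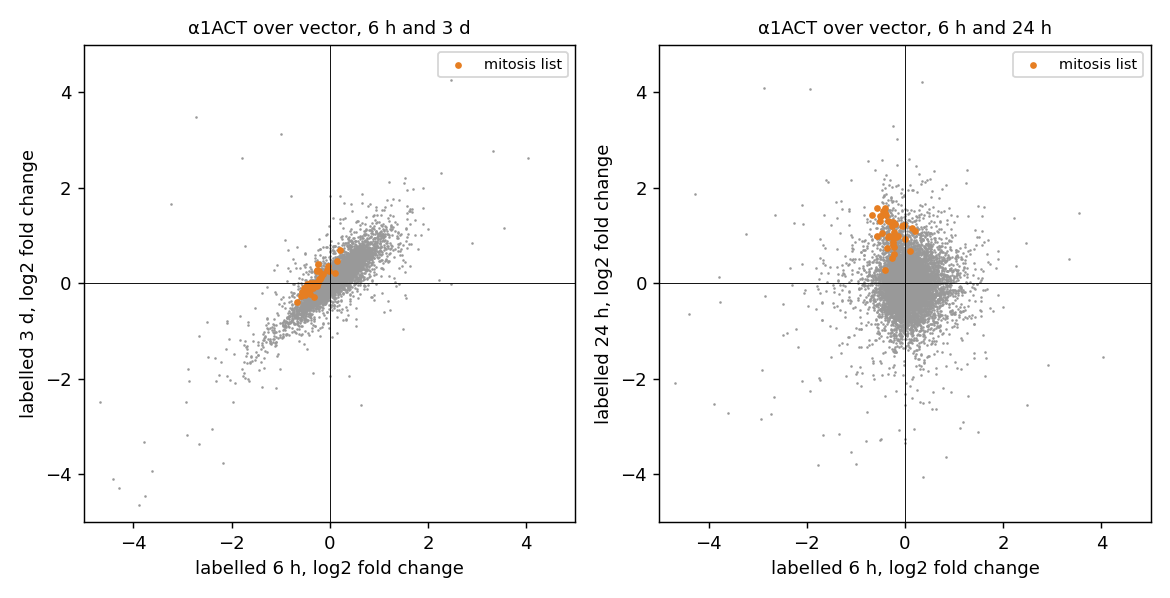
Log2 fold change of α1ACT over vector for each tested gene (grey points) at the labelled 6 h on the horizontal axis, against 3 d (left) and 24 h (right) on the vertical axis, with mitosis genes in orange and 3 genes outside the axes of -5 to 5. The points follow the diagonal on the left (r of 0.820) and show no such trend on the right (r of 0.016).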

How the data were processed

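RNA of 24 PC12 libraries had been sequenced, and the authors deposited raw read counts per gene for each library. Per the submitters' processing notes, FastQC 0.11.2, TopHat2 2.0.10, Picard 1.117, HTSeq 0.5.4p5, edgeR and the build rn5 were used. Not given in the sources used here were the annotation, the settings and any use of strand in counting, so overlapping and antisense genes are uncertain, as are near-identical copies. Summary lines were left out of the tests. Of 17055 genes, 13187 had a count and 9994 passed edgeR's filter (minimum count 10, minimum total 15). All 8 groups were fitted in edgeR 4.0.16 (R 4.3.3, limma 3.58.1) with TMM factors of 0.981 to 1.02 and quasi-likelihood tests on 16 residual degrees of freedom (common biological variation 5.76%), with Benjamini-Hochberg adjustment over all tested genes. Errors beside log2 fold changes are standard errors, and n is 3 libraries per group. The script was tested on simulated data. Members and gene lists were chosen with earlier results of these data known. Named genes were the 14 largest rises and 14 largest falls with at least 2 CPM in the higher group and no overlap, the 6 largest changes with a mean of at least 200 CPM over the 6 libraries, up to 6 members per list by p, the genes tied to α1ACT, and 5 per direction for differences between times. Other genes named, among them Myc, Fos, Egr1, Cnn3, Itgb5, Nefh, Birc5, Parp14 and Ccnb1, were chosen after their values were seen. Of the 17055 symbols, 16568 matched RefSeq GRCr8 by symbol or synonym. Alternatives were DESeq2 1.42.0, other scalings, no filter, a replicate block, the compared libraries alone and libraries left out. A test against a fold of 1.2 was a further alternative for counts of genes, and not for single named genes. Some single genes are not reported here.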

Additional observations from a re-analysis of the deposited data

Results flagged for a closer look

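The difference of the labelled lines at 6 h and the same difference at 24 h departed from each other in 5136 genes, by edgeR's test of the difference itself. By file names the first is 24 h against 6 h and the second 10 d against 3 d, both in the vector line, and the 2 readings cannot be told apart from these values. The 5 largest differences towards 6 h were those of Stard8 (5.03 on the log2 scale), Zdhhc22 (4.62), Fa2h (4.47), Odz4 (4.40) and Slc12a8 (4.13). In each, summed counts of 3 libraries were highest in the vector libraries labelled 24 h. Stard8 had 151 counts there, 23 in the α1ACT libraries at 24 h, 2 in the vector libraries at 6 h and 14 in the α1ACT libraries at 6 h. The teneurin Odz4 had 778, 41, 76 and 107 counts in the same order, and Slc12a8 428, 47, 23 and 55. Zdhhc22, a palmitoyltransferase family member, had 2 counts in the vector and 19 in the α1ACT libraries at 6 h, a ratio of 8.65 with an exact 95% counting interval of 2.09 to 76.6. For Stard8 that ratio was 6.38 (1.46 to 57.8), and for the fatty acid hydroxylase Fa2h, with 6 and 12 counts, it was 1.82 (0.633 to 5.91).

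The 5 largest differences in the other direction were those of Scn7a (-6.97), Mpzl2 (-3.77), Lrrn3 (-3.76), Hist1h2bk (-3.75) and LOC691496 (-3.54). Scn7a had 96 counts in the vector and 14 in the α1ACT libraries at 6 h, but 0 and 6 at 24 h, so its fitted value is no bound. Mpzl2 had 238 and 12 counts at 6 h and 16 and 9 at 24 h. The leucine-rich repeat protein Lrrn3 had 308 and 111 counts at 6 h, lower with α1ACT, and 18 and 72 at 24 h, where the order was turned. LOC691496 had 149 and 138 at 6 h and 31 and 269 at 24 h. Hist1h2bk had 94 and 24 at 6 h and 32 and 88 at 24 h, and as a histone gene with near-identical copies it is uncertain.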

How the results depend on the processing

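At 6 h, leaving out replicate 1, 2 or 3 of every group gave 2580 to 3985 called genes, with 1202 to 2022 higher and 1317 to 1963 lower, and leaving out a single library of the comparison gave 3480 to 3753. A test against a fold of 1.2 called 1139 genes (659 higher, 480 lower), 8 lower mitosis, 9 higher interferon and 10 lower neurite genes, and 3047 genes for the difference between 6 h and 24 h, since it asks for a larger change. The difference between 6 h and 3 d called 8 genes when only the libraries compared were fitted and 0 to 14 with a replicate left out, and the cause was not tested. Lower mitosis genes ranged from 16 to 24 with libraries left out, lower immediate early genes from 13 to 16, lower contractile genes from 14 to 16, higher interferon genes from 14 to 18 and lower neurite genes from 14 to 19. With the replicate number as a block, 4389 genes were called (2157 higher, 2232 lower), 0 for the difference from 3 d and 5312 for that from 24 h. Deviations of same-numbered samples from their group means correlated at 0.164, 0.342 and 0.0980. Those of replicate 2 with other numbers correlated at -0.2409 to -0.1685. Each vector sample correlated best with its own number, and α1ACT replicate 3 did not. In all 8 groups of the series, the counts of replicates 1 and 3 lay closest to each other, by chi-square per degree of freedom. The main fit did not use the replicate numbers, and what samples of the same number share was not tested. Of 3418 values of 228 named genes under the alternatives, 3276 kept their direction and side of the threshold. Of the rest, 136 no longer passed, 5 newly passed and 1 changed sign, Taf1 with library sizes (0.0117). The test against a fold of 1.2 is not among these values, since it was run for counts of genes only. Single named genes with small changes were therefore not held against it. Counts of 2 to 131 in the low genes limit their ratios to the intervals given.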

Other observations

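Lists added after the values were seen describe 4 further groups of genes, with no test of the lists. Of 14 tested genes of polyamine metabolism, which makes and breaks down putrescine, spermidine and spermine, 7 were lower and 3 higher, beside 21.2% and 20.5% of all tested genes. Ornithine decarboxylase (Odc1), the entry enzyme, stood at 1204, 1356 and 1246 CPM in the vector libraries and 615, 665 and 511 CPM in the α1ACT libraries (-1.09 ± 0.14). Its groups were separate, as were those of Azin1, which shields it from antizyme (-1.73 ± 0.10). The spermine oxidase Smox was also lower (-1.33 ± 0.27), and the acetyltransferase-like Sat2 was higher, at 11.1, 12.6 and 15.5 against 23.6, 20.5 and 21.4 CPM (0.75 ± 0.13). Of 36 tested regulators of actin 21 were lower and 5 higher, with a median of -0.22. Cytoplasmic β-actin (Actb) stood at 2819, 3205 and 3078 against 2077, 2045 and 1954 CPM (-0.58 ± 0.08). The small GTPase Rhob was lower by a larger step (-1.14 ± 0.07), as was Mical2, an oxidase of actin filaments (-1.46 ± 0.15), and the filament-severing gelsolin (Gsn) was higher (0.60 ± 0.14).

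Of 24 tested Wnt pathway genes 10 were higher and 5 lower. Axin2, a target and inhibitor of the pathway, stood at 15.97, 13.9 and 17.2 against 30.1, 28.7 and 32.5 CPM (0.96 ± 0.14), with no overlap. The ligand Wnt5a was higher (0.99 ± 0.18), as was Kremen2 (1.73 ± 0.24). Of 7 tested genes of cyclic GMP signalling 4 were higher and 1 lower. Both subunits of the nitric oxide receptor guanylyl cyclase were higher, Gucy1a3 at 36.5, 32.1 and 32.7 against 69.05, 59.4 and 72.2 CPM (0.99 ± 0.09) and Gucy1b3 at 187, 174 and 189.9 against 348, 368 and 366 CPM (0.98 ± 0.05). The phosphodiesterase Pde2a, which degrades cyclic GMP, was lower (-1.14 ± 0.28).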
